A study of Mus musculus with 12 samples.

Results

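Genes that mark the contractile and supporting cells of the vessel wall, the pericytes and the smooth muscle cells, were followed in the ischemic brain hemisphere of mice. The members were the rows of the deposited count table whose gene symbol was Pdgfrb, Rgs5, Abcc9, Notch3, Vtn, Acta2, Tagln, Cnn1, Myh11 or Des, which made 10 of 39756 genes. All 10 passed the filter on low counts and were among the 17558 genes tested. The RNA came from the ischemic hemisphere of 12 male C57BL/6J mice in 3 groups of 4, and by the study's methods the animals were 9 to 10 weeks old. Sham mice had surgery without occlusion and received saline. Vehicle mice received saline and had the middle cerebral artery closed by a filament for 45 min and then reopened (tMCAO), a model of stroke with reperfusion. LJP mice underwent the same tMCAO and received Laminaria japonica polysaccharide, a sulfated sugar polymer of a brown seaweed, by mouth for 14 days before surgery and afterwards. The study compared several doses and took its middle dose, LJP-M, into later experiments, but for the sequenced mice themselves neither dose nor time of sampling is stated in the text used here. All mice carry 1 batch label, and no genotype or transgene separates the groups.

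Pericytes lie on the capillary wall beneath a basement membrane shared with the endothelium, and smooth muscle cells wrap arteries, arterioles and venules. Endothelial cells recruit pericytes with the growth factor PDGF-BB, which binds the receptor encoded by Pdgfrb, and they instruct mural cells through Notch ligands, which bind the receptor encoded by Notch3. The force of smooth muscle comes from actin and myosin filaments, and the genes of this apparatus are driven by serum response factor (SRF) with its cofactors, which bind a short DNA element called the CArG box. After a stroke pericytes can constrict, die, detach or multiply, and several genes of this set are also made by fibroblasts, by reactive cells of a scar or, in the case of Des, by striated muscle.

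The CArG box has 10 letters, CC, then 6 letters that are each A or T, then GG, and it was searched in RefSeq promoter windows of GRCm38.p6, from 250 bases before to 50 bases after 1 transcript start a gene, on both strands. That start need not be the outer end of the gene as printed below: for Acta2 it is 34255373, inside the gene, and for Abcc9 the whole window lies inside the gene. Windows were at hand for 7 of the 10 members, with Tagln, Myh11 and Pdgfrb not matched. None of the 7 windows held an exact box, which 1.63% of the 32851 windows in the table held. With up to 1 mismatch, Acta2 was the member with a match, and it had 2 of them, where 21.1% of all windows had at least 1 and 3.70% had 2 or more. Both are printed 5′ to 3′ on the minus strand with 10 bases on either side, and the capitals mark the CArG-like letters. They are shown because Acta2 was the only member with a match among the 7 windows.
Acta2, chr19:34255438-34255467, match at 84 to 75 bases before the transcript start at 34255373: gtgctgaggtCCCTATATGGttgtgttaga
Acta2, chr19:34255388-34255417, match at 34 to 25 bases before the same transcript start: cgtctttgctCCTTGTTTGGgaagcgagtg
A match in letters is a description and not a measured binding site. Both matches lie inside the gene's full span. An annotated untranslated region of Acta2 overlaps the stretch before this transcript start, and whether it covers either match was not tested.

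Total counts lay between 17960353 and 22216315 per mouse, so that 3 counts, the limit that a count of 0 allows, correspond to 0.129 to 0.173 CPM (counts scaled to a fixed library size after TMM normalization). Levels below are CPM, and fold changes are log2 values with their SE from edgeR's quasi-likelihood test on the counts of all 12 mice, with p-values adjusted over the 17558 genes by the Benjamini-Hochberg method. A gene was called changed at an adjusted p below 0.05. Vehicle 2, and less far Vehicle 1, stood apart from Vehicle 3 and Vehicle 4. Over gene counts the chi-square statistic divided by its degrees of freedom was 94.8 to 111 between Vehicle 2 and these mice and 41.3 to 47.2 between Vehicle 1 and them, against 4.19 between Vehicle 3 and Vehicle 4. The 14 endothelial markers summed to 2802 CPM in Vehicle 2, 1225 in Vehicle 1 and 581 to 668 in the other Vehicle mice, against 368 to 551 in LJP mice and 321 to 352 in Sham mice. Fibroblast and meningeal markers summed to 1838 CPM in Vehicle 2, against 323 to 472 in the other Vehicle mice and 230 to 328 in Sham and LJP mice together. Because whole tissue was sequenced, fewer cells of a type and less RNA per cell cannot be told apart.

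In the Vehicle group 4 of the 10 genes rose against Sham, namely Tagln, Des, Pdgfrb and Notch3, and none fell. Over all genes tested 39.9% were called in this comparison, 22.7% higher and 17.3% lower, so a share of 4 in 10 is that of the genes at large. The median log2 change of the members was 0.33, and that of all genes tested was 3.5e-05. Without Vehicle 2 the members' median was 0.16, the same 4 genes rose and Myh11 fell, where 34.3% of all genes were called. The median of the 5 contractile members alone went from 0.20 to -0.16 without it. The Vehicle and Sham mice did not overlap in the 4 genes that rose, as in 39.5% of all genes tested. The remaining genes did not move together: Abcc9 had a positive value, Acta2, Cnn1 and Vtn lay near 0, and Rgs5 and Myh11 had negative values. In the LJP group 8 of the 10 genes lay below Vehicle in the fit, and no gene was called, where 0.0228% of all genes were called.

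**Figure D1:**
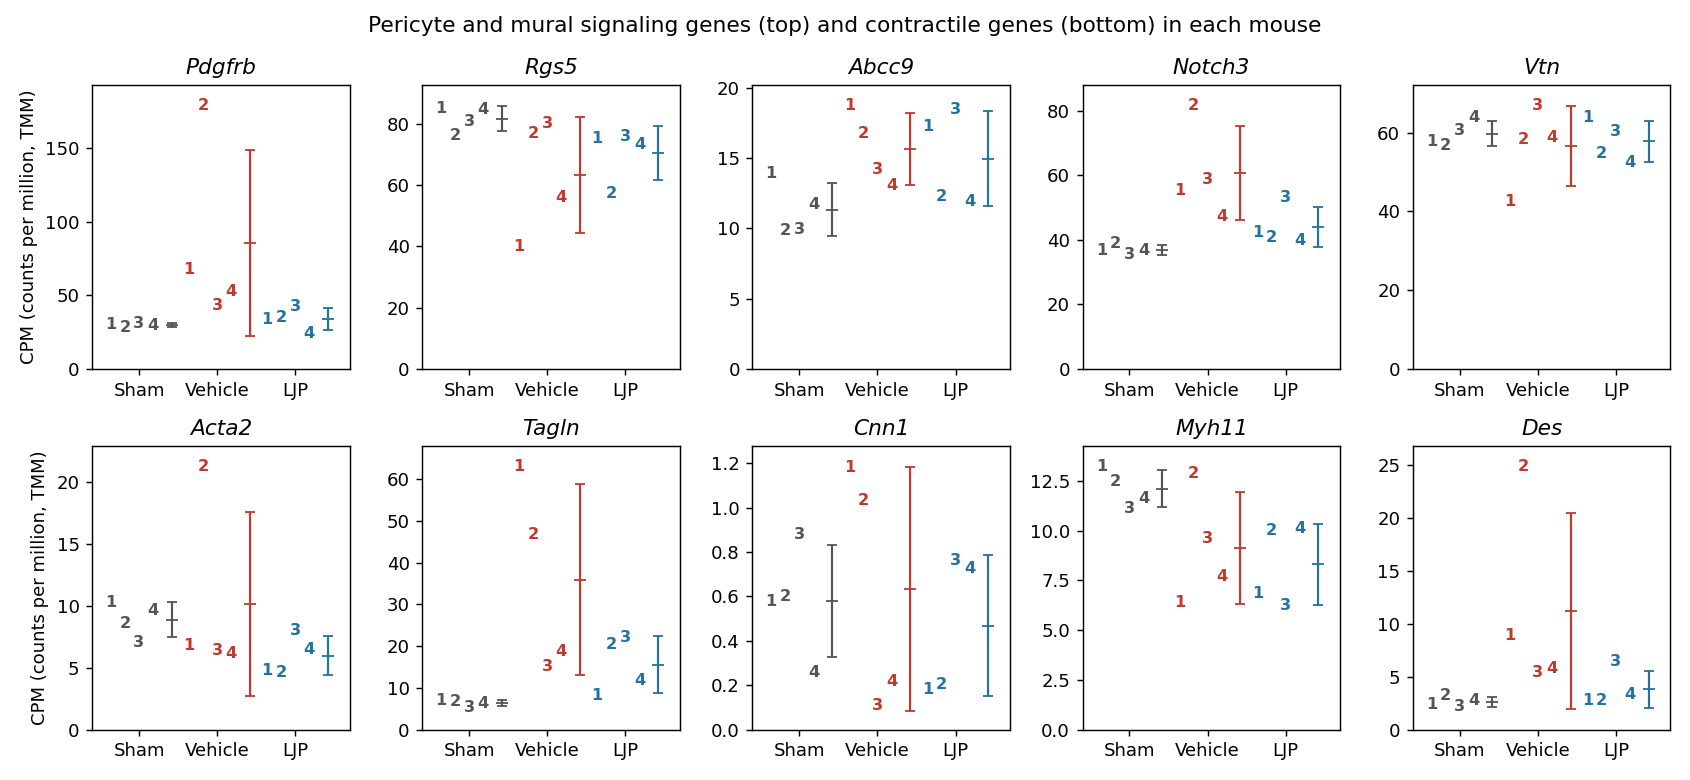
Levels of the 10 genes in CPM (vertical axes, each from 0) for the 4 mice of the Sham, Vehicle and LJP groups, with each digit being the mouse of that number at its value, and the bar beside it the mean ± SD (n = 4). Tagln, Des, Pdgfrb and Notch3 are higher in every Vehicle mouse than in any Sham mouse, and Vehicle 2 is the highest mouse for Pdgfrb, Des, Notch3 and Acta2.

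Pdgfrb (Entrez 18596, chr18:61045127-61085067, plus strand) encodes the receptor through which endothelial PDGF-BB holds pericytes to the vessel. Its level was 30.5, 28.0, 31.1 and 29.4 CPM in Sham mice 1 to 4. In Vehicle mice 1 to 4 it was 67.8, 178.5, 42.8 and 52.9 CPM, and in LJP mice 33.7, 34.8, 42.3 and 24.3 CPM. All Vehicle mice lay above all Sham and all LJP mice, by a narrow margin in Vehicle 3, and LJP mice overlapped the Sham range. Between Vehicle and Sham Pdgfrb rose by 1.53 ± 0.37 on the log2 scale, a 2.88-fold change (edgeR adjusted p = 0.00651). An exact two-sided permutation test of its log2 CPM gave p = 0.0286, the smallest p that 4 mice against 4 allow. Without Vehicle 2 the log2 change was 0.87, with an edgeR adjusted p = 0.00199. Between LJP and Vehicle the log2 value was -1.34 ± 0.36 (edgeR adjusted p = 0.0680, exact permutation p = 0.0286), and without Vehicle 2 it was -0.69 (edgeR adjusted p = 0.0928). Pdgfrb was past the threshold in this comparison when Vehicle 3 or Vehicle 4 was left out and by DESeq2, with adjusted p-values of 0.0133, 0.0335 and 0.00627.

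Notch3 (Entrez 18131, chr17:32120820-32166896, minus strand) encodes the Notch receptor of mural cells, in which mutations cause a hereditary disease of the small brain arteries. Sham mice 1 to 4 had 36.7, 38.9, 35.3 and 36.6 CPM. Vehicle mice had 55.4, 81.5, 58.8 and 47.3 CPM, and LJP mice had 42.1, 40.7, 53.1 and 39.9 CPM. The Sham mice were within 4 CPM of each other, every Vehicle and every LJP mouse lay above them, and LJP 3 alone reached into the Vehicle range. Notch3 rose by 0.72 ± 0.15 on the log2 scale in Vehicle against Sham (edgeR adjusted p = 0.00288), and by 0.54 without Vehicle 2 (edgeR adjusted p = 0.00216). LJP differed from Vehicle by -0.47 ± 0.15 on the log2 scale (edgeR adjusted p = 0.0788, exact permutation p = 0.0571). Against Sham the LJP value was 0.25 ± 0.15 (edgeR adjusted p = 0.390), although the mice of these groups did not overlap. Where they overlap, reads of Notch3 cannot be separated from those of 2 opposite-strand genes, since the library kit does not mark strand. These are Gm38585 with 29 to 125 counts per mouse and Gm41568 with 24 to 70.

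Rgs5 (Entrez 19737, chr1:169655501-169695813, plus strand) encodes a regulator that shortens signaling by G protein-coupled receptors and is one of the most abundant transcripts of brain pericytes. In Sham mice 1 to 4 it stood at 85.1, 76.2, 80.9 and 84.7 CPM. Vehicle mice had 40.0, 77.0, 80.1 and 56.0 CPM, and LJP mice had 75.2, 57.4, 76.0 and 73.4 CPM. Vehicle 1 and Vehicle 4 were low, and the other Vehicle mice were within the Sham range. Every LJP mouse lay below the lowest Sham mouse, LJP 3 by a narrow margin (76.0 against 76.2 CPM). The log2 change was -0.37 ± 0.18 in Vehicle against Sham (edgeR adjusted p = 0.115), and -0.21 ± 0.18 in LJP against Sham (edgeR adjusted p = 0.573). Leaving out Vehicle 3 gave -0.51 for Vehicle against Sham with an edgeR adjusted p = 0.0333, and leaving out Vehicle 2 gave -0.49 with an edgeR adjusted p = 0.0502. Without Vehicle 1, the lowest mouse, it was -0.20 (edgeR adjusted p = 0.244), and Rgs5 was called in 1 of the 12 fits without 1 mouse. Between LJP and Vehicle the value was 0.16 ± 0.18 (edgeR adjusted p = 0.568), and it turned to -0.012 without Vehicle 1.

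Abcc9 (Entrez 20928, chr6:142587862-142702766, minus strand) encodes SUR2, the regulatory subunit of the ATP-sensitive potassium channel of mural cells. It had 13.9, 9.81, 9.92 and 11.7 CPM in Sham mice. Vehicle mice had 18.7, 16.8, 14.2 and 13.04 CPM, and LJP mice had 17.2, 12.3, 18.4 and 11.9 CPM. Sham 1 overlapped the lowest Vehicle mouse, and the LJP mice reached from within the Sham range to just under the highest Vehicle mouse. The log2 difference between Vehicle and Sham was 0.47 ± 0.18 (edgeR adjusted p = 0.0540, exact permutation p = 0.0571). This value crossed the threshold without Sham 1, Vehicle 3 or Vehicle 4, with edgeR adjusted p-values of 0.0387, 0.0476 and 0.0354, while without Vehicle 1 it was 0.37 (edgeR adjusted p = 0.140). It also did so by DESeq2 (adjusted p = 0.0379) and with scaling by library size only (edgeR adjusted p = 0.0326). LJP differed from Vehicle by -0.07 ± 0.18 (edgeR adjusted p = 0.814).

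Vtn (Entrez 22370, chr11:78499120-78502325, plus strand) encodes vitronectin, an adhesive protein that brain pericytes secrete and that binds endothelial integrins. Sham mice had 57.8, 56.7, 60.5 and 63.8 CPM. Vehicle mice had 42.6, 58.3, 66.7 and 58.7 CPM, and LJP mice had 63.9, 54.6, 60.2 and 52.4 CPM. The 3 groups overlapped, with Vehicle 1 the lowest and Vehicle 3 the highest mouse. The log2 difference was -0.08 ± 0.12 between Vehicle and Sham (edgeR adjusted p = 0.623) and 0.03 ± 0.12 between LJP and Vehicle (edgeR adjusted p = 0.874). Without Vehicle 1 both values changed sign, to 0.037 and -0.084.

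Among the contractile genes, Tagln (Entrez 21345, chr9:45929628-45936058, minus strand), which encodes the actin-binding protein transgelin (SM22 alpha), had the widest change with all mice kept, but not without Vehicle 1. Sham mice had 7.04, 6.76, 5.37 and 6.17 CPM. Vehicle mice had 63.0, 46.7, 15.2 and 18.8 CPM, and LJP mice had 8.08, 20.5, 22.2 and 11.7 CPM. Every mouse with tMCAO lay above every Sham mouse, and LJP 2 and LJP 3 lay above the lower pair of Vehicle mice. Tagln rose by 2.51 ± 0.45 on the log2 scale in Vehicle, a 5.68-fold change (edgeR adjusted p = 0.00147, exact permutation p = 0.0286), and by 2.35 without Vehicle 2 and 2.09 without Vehicle 1, where Des had 2.19. In LJP against Vehicle the log2 value was -1.21 ± 0.42 (edgeR adjusted p = 0.0970, exact permutation p = 0.171). In LJP against Sham it was 1.30 ± 0.44 (edgeR adjusted p = 0.125), the mice did not overlap, and a fit of these groups alone gave an adjusted p = 0.00311. Tagln shares 2480 bases with Pcsk7 on the opposite strand, a gene with 585 to 1917 counts per mouse. Reads of the pair cannot be told apart in that stretch, since the library kit does not mark strand.

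Des (Entrez 13346, chr1:75360292-75368579, plus strand) encodes desmin, the intermediate filament of muscle and of many pericytes. Sham mice had 2.36, 3.21, 2.19 and 2.80 CPM. Vehicle mice had 8.85, 24.8, 5.38 and 5.77 CPM, and LJP mice had 2.73, 2.71, 6.42 and 3.34 CPM. All Vehicle mice were above all Sham mice, Vehicle 2 was far above the rest, and LJP 3 lay within the Vehicle range. Des rose by 2.09 ± 0.48 on the log2 scale in Vehicle against Sham (edgeR adjusted p = 0.00505), and by 1.33 without Vehicle 2 (edgeR adjusted p = 0.00534). Between LJP and Vehicle the log2 value was -1.57 ± 0.46 (edgeR adjusted p = 0.0720, exact permutation p = 0.0857), and without Vehicle 2 it was -0.82 (edgeR adjusted p = 0.158). Of 15 striated muscle markers, 9 had enough counts to be tested, none rose and Myh7 fell in Vehicle, and their sum was 22.8 to 30.2 CPM in Vehicle against 34.1 to 41.6 CPM in Sham mice.

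Acta2 (Entrez 11475, chr19:34240336-34255585, minus strand) encodes smooth muscle alpha-actin, and its level turned on 1 mouse. Sham mice had 10.3, 8.55, 7.07 and 9.64 CPM. Vehicle mice had 6.81, 21.3, 6.41 and 6.14 CPM, and LJP mice had 4.77, 4.65, 7.995 and 6.47 CPM. Vehicle 2 was the highest of all mice, and the other Vehicle mice all lay below the lowest Sham mouse. The log2 difference between Vehicle and Sham was 0.20 ± 0.37 with all mice (edgeR adjusted p = 0.694) and -0.47 without Vehicle 2 (edgeR adjusted p = 0.0865). LJP differed from Vehicle by -0.77 ± 0.37 (edgeR adjusted p = 0.183), which became -0.11 without Vehicle 2. Against Sham the LJP value was -0.58 ± 0.37 (edgeR adjusted p = 0.450), and a fit of these groups alone gave an adjusted p = 0.0339.

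Myh11 (Entrez 17880, chr16:14194527-14292188, minus strand) encodes smooth muscle myosin heavy chain, the most specific marker of differentiated smooth muscle in the set. Sham mice had 13.2, 12.5, 11.1 and 11.6 CPM. Vehicle mice had 6.40, 12.8, 9.58 and 7.71 CPM, and LJP mice had 6.86, 10.02, 6.25 and 10.1 CPM. Vehicle 2 lay within the Sham range, and every other mouse with tMCAO lay below it. The log2 change in Vehicle against Sham was -0.40 ± 0.22 (edgeR adjusted p = 0.149), and without Vehicle 2 Myh11 fell by 0.63 (edgeR adjusted p = 0.0224). That was the 1 call in 12 fits without 1 mouse, and without Vehicle 1 the value was -0.27 (edgeR adjusted p = 0.337). In LJP against Sham the value was -0.54 ± 0.22 (edgeR adjusted p = 0.192, exact permutation p = 0.0286), and a fit of these groups alone gave an adjusted p = 0.0188. LJP and Vehicle differed by -0.14 ± 0.22 (edgeR adjusted p = 0.681), or 0.074 without Vehicle 2.

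Cnn1 (Entrez 12797, chr9:22099221-22109221, plus strand) encodes calponin 1, which binds actin and dampens the myosin motor. It was near the limit of these libraries, with 10, 11, 16 and 5 counts in Sham mice, 26, 24, 2 and 4 in Vehicle mice, and 4, 4, 14 and 13 in LJP mice. The mean ± SD was 0.578 ± 0.253 CPM in Sham, 0.634 ± 0.550 CPM in Vehicle and 0.468 ± 0.318 CPM in LJP mice (n = 4 each). Within Vehicle, mice 1 and 2 were high and mice 3 and 4 were low, and no difference between groups was detectable at this depth. The log2 values were 0.17 ± 0.67 in Vehicle against Sham (edgeR adjusted p = 0.852) and -0.50 ± 0.68 in LJP against Vehicle (edgeR adjusted p = 0.641). Without Vehicle 1 or Vehicle 2 the first of these was -0.28 or -0.16.

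**Figure D2:**
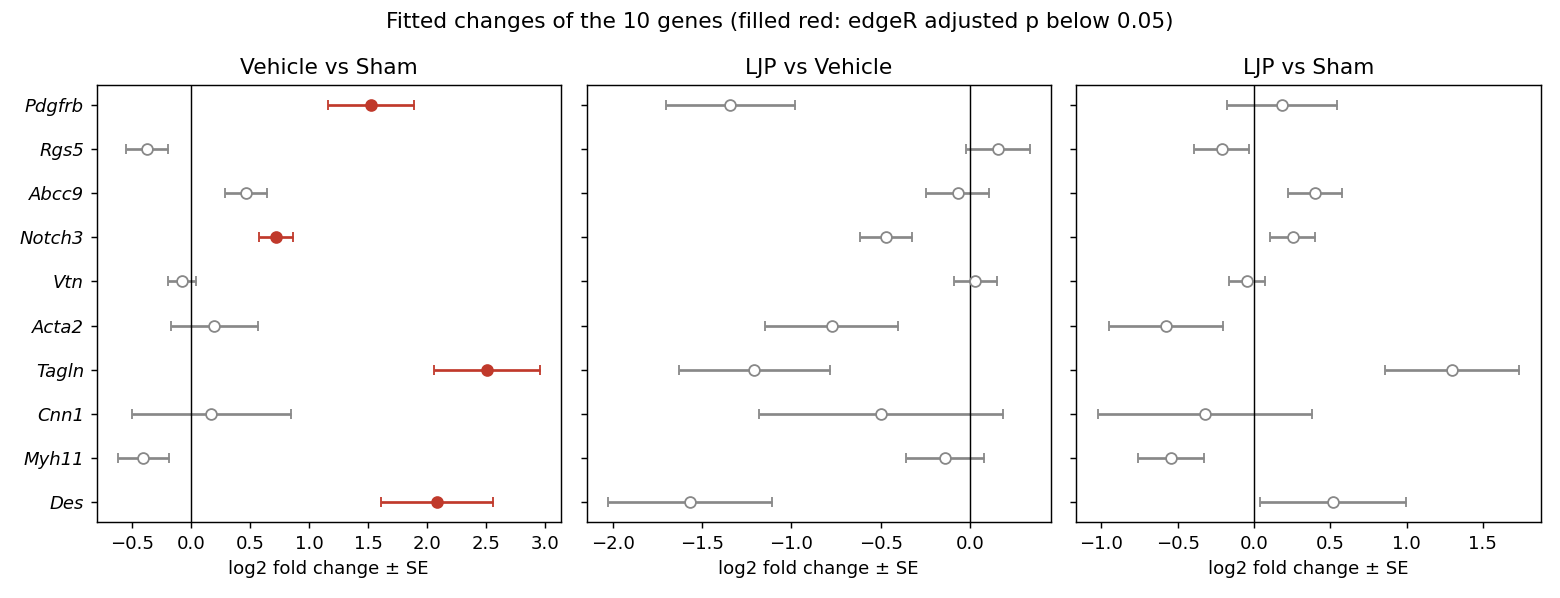
Fitted log2 fold changes with their SE (horizontal axes, a different range in each panel) of the 10 genes in Vehicle against Sham, LJP against Vehicle and LJP against Sham, with filled red points at an edgeR adjusted p below 0.05. Pdgfrb, Notch3, Tagln and Des are filled in the panel of Vehicle against Sham, and no point is filled in the other panels.

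No member was called between LJP and Vehicle, with 0% of all genes called higher and 0.0228% called lower by edgeR (4 genes). At an unadjusted p below 0.05 the count was 4 of 10 members (Pdgfrb, Des, Notch3 and Tagln) and 5212 of 17558 genes, or 29.7%. LJP and Vehicle mice did not overlap in 1 member, Pdgfrb, and in 11.7% of all genes. DESeq2 called the same 4 members lower in LJP, where it called 13.7% of all genes. The median log2 change was -0.48 over the 10 members, or -0.14 without Vehicle 2, against -0.0017 over all genes tested. Tests of Vehicle against Sham and of LJP against Vehicle share the Vehicle mice, so a high Vehicle mouse moves both values in opposite directions. Leaving out Vehicle 2 brought Pdgfrb from -1.34 to -0.69, Des from -1.57 to -0.82, Notch3 from -0.47 to -0.29 and Acta2 from -0.77 to -0.11. Tagln moved from -1.21 to -1.06 without Vehicle 2 and to -0.79 without Vehicle 1.

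**Figure D3:**
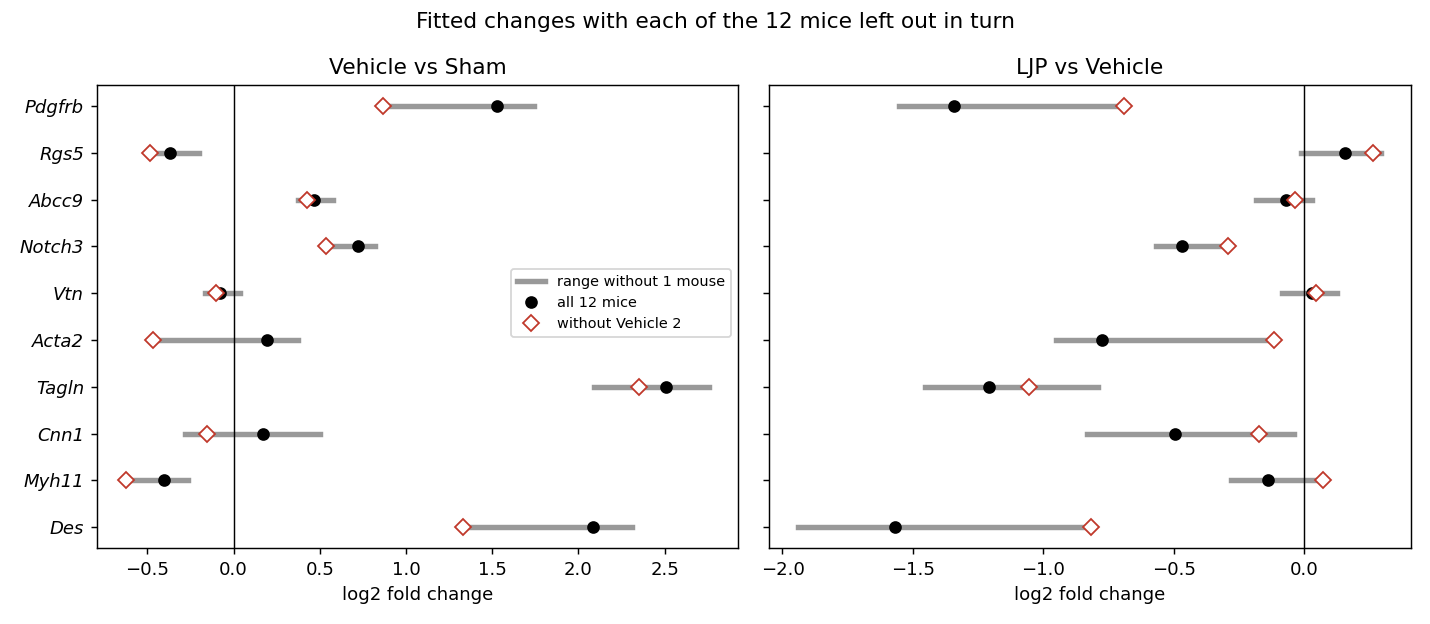
Log2 fold changes (horizontal axes) of the 10 genes with all 12 mice (black points), the range over fits without 1 mouse (grey bars) and the fit without Vehicle 2 (open diamonds), for Vehicle against Sham and LJP against Vehicle. The bars of Tagln, Des, Pdgfrb and Notch3 stay on 1 side of 0 in both panels, and the bar of Acta2 crosses 0 in Vehicle against Sham, from -0.47 to 0.37.

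Against Sham, LJP mice had no called member, where 4.75% of all genes were called, 3.85% higher and 0.9% lower. At an unadjusted p below 0.05 there were 3 members, Tagln, Myh11 and Abcc9, where 18.8% of all genes were. DESeq2 called 1, Tagln, where it called 8.71% of all genes. In 4 members the LJP and Sham mice did not overlap, with Tagln and Notch3 higher and Rgs5 and Myh11 lower in LJP, and 24.9% of all genes did not overlap. The log2 value of Abcc9 was 0.40 ± 0.18 (edgeR adjusted p = 0.251). Pdgfrb stood at 0.18 ± 0.36 (edgeR adjusted p = 0.839) and Des at 0.52 ± 0.48 (edgeR adjusted p = 0.618). Vtn and Cnn1 had -0.05 ± 0.12 and -0.32 ± 0.70, with edgeR adjusted p-values of 0.878 and 0.857.

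Levels of different genes were compared as CPM per kb of gene length. In Sham mice Vtn was the highest member with 34.2 CPM per kb, followed by Rgs5 with 17.97. Pdgfrb (4.87), Notch3 (4.41), Tagln (3.99) and Acta2 (3.14 CPM per kb) came next, and each of these overlapped its neighbor in the order. Myh11 (1.61) and Abcc9 (1.40 CPM per kb) overlapped as well, and Des (0.862) and Cnn1 (0.275 CPM per kb) stood apart below them. In Vehicle mice Tagln moved from the fifth to the second place, with 22.7 CPM per kb, and it overlapped Vtn (32.4) above it and Pdgfrb (14.0015 CPM per kb) below it. Pdgfrb and Rgs5 (13.9 CPM per kb) had nearly the same mean there. In LJP mice the order was Vtn (33.1), Rgs5 (15.5), Tagln (9.84), Pdgfrb (5.53) and Notch3 (5.26 CPM per kb), with Cnn1 last at 0.223. Between Rgs5 and Tagln, and at each step from Tagln to Notch3, neighbors overlapped in the LJP group.

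**Figure D4:**
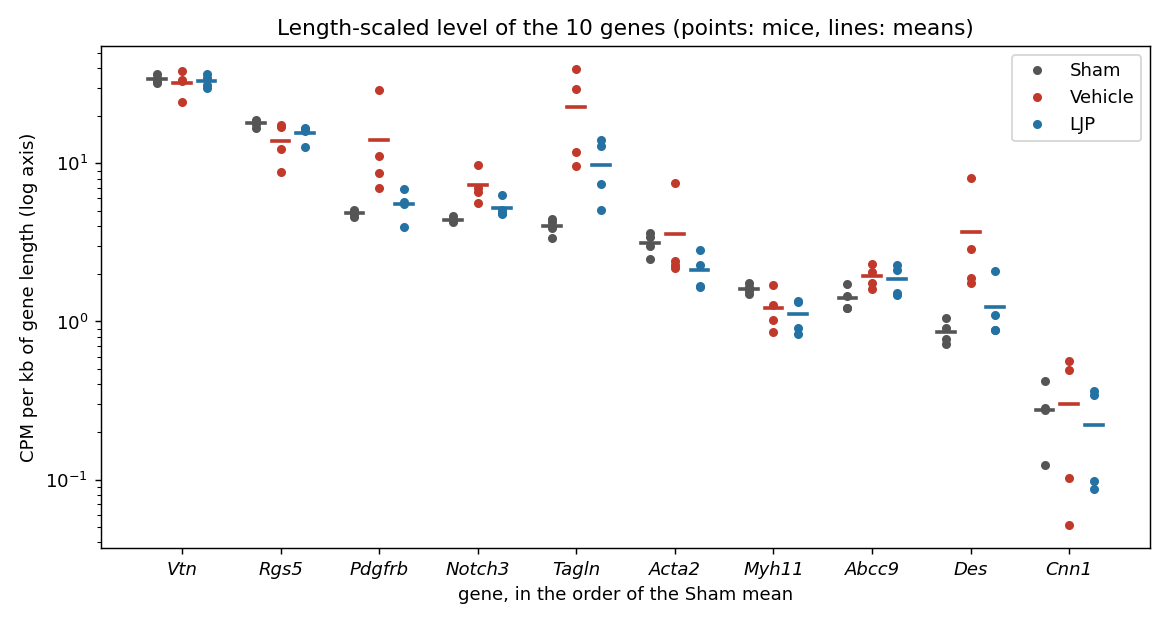
CPM per kb of gene length (vertical log axis) of the 10 genes in the order of their Sham mean, with a point per mouse and a line at the mean of the Sham, Vehicle and LJP groups. Vtn and Rgs5 lead in Sham mice with 34.2 and 17.97 CPM per kb, and Tagln reaches 22.7 CPM per kb in Vehicle mice.

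The partners of the members were taken from lists that hold the same pathways. Beside each count stands a share of 39.9% of all genes called in Vehicle against Sham, or 34.3% without Vehicle 2. Of 5 PDGF ligands and receptors other than Pdgfrb, Pdgfb and Pdgfra rose in Vehicle against Sham and none fell, which is near that share. Pdgfb, the endothelial ligand of the Pdgfrb receptor, went from 46.9 ± 2.86 to 71.8 ± 8.51 CPM (SD, n = 4), a log2 change of 0.61 ± 0.09 (edgeR adjusted p = 0.000442). In LJP mice it stood at 60.2 ± 3.23 CPM, higher than in Sham by 0.36 on the log2 scale (edgeR adjusted p = 0.0358) and below Vehicle by a value that was not called (-0.25, edgeR adjusted p = 0.0942). Pdgfra, the receptor of fibroblasts and oligodendrocyte precursors, rose by 0.65 (edgeR adjusted p = 0.0215), or by 0.36 without Vehicle 2 (edgeR adjusted p = 0.0376). That call was lost without Sham 1 or Sham 4 (edgeR adjusted p = 0.0502 and 0.0546). Pdgfa, Pdgfc and Pdgfd had log2 values of -0.01, 0.10 and 0.56 that were not called. That of Pdgfd ran from 0.21 without Vehicle 2 to 0.80 without Vehicle 1, where it was called (edgeR adjusted p = 0.0273).

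Of 13 Notch ligands, receptors and targets, 6 rose and 1 fell in Vehicle against Sham (39.9% of all genes called), and without Vehicle 2 the counts were 4 and 0 (34.3% of all genes called). Dll4 and Jag1, ligands made by endothelial cells, rose by 2.29 and 0.97 on the log2 scale (edgeR adjusted p = 0.00401 and 0.0464). The receptors Notch1, Notch2 and Notch4 rose by 1.38, 0.91 and 2.23, with edgeR adjusted p-values of 0.00136, 0.00506 and 0.00275, and by 1.10, 0.64 and 1.60 without Vehicle 2. Rbpj, the DNA-binding partner of the cleaved receptors, rose by 0.40 (edgeR adjusted p = 0.0313). The target gene Hey1 fell by 0.37 (edgeR adjusted p = 0.0275), and the targets Hes1, Hey2, Heyl and Nrarp, with values of 0.57, 0.32, 0.44 and 0.11, were not called, nor were the ligands Jag2 and Dll1. Without Vehicle 2 the 4 targets had 0.26, 0.20, -0.00036 and -0.029, and Dll1 went from 0.0055 to -0.15. The calls of Jag1, Rbpj and Hey1 were those lost without Vehicle 2, with log2 values of 0.40, 0.23 and -0.33 (edgeR adjusted p = 0.187, 0.0817 and 0.0518). Of the 12 fits without 1 mouse, Jag1 was called in 2, Rbpj in 6 and Hey1 in 8. In LJP against Vehicle edgeR called none of the 13, and DESeq2, with 13.7% of all genes called, called 5 lower.

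The pore subunit Kcnj8, which forms the channel of mural cells with the product of Abcc9, rose in Vehicle from 3.71 ± 0.590 to 11.1 ± 4.59 CPM (SD, n = 4). Its log2 change was 1.58 ± 0.28 (edgeR adjusted p = 0.00133), and LJP mice had 5.78 ± 1.46 CPM. Kcnj11 and Abcc8, the subunits of neurons and endocrine cells, had -0.31 and -0.40 on the log2 scale and were not called (edgeR adjusted p = 0.0515 and 0.139). Of 6 tested relatives of Rgs5 in the R4 family, Rgs1, which leukocytes express, rose and 3 fell in Vehicle. Rgs4 and Rgs8, which are abundant in neurons, fell by 1.36 and 1.09 on the log2 scale (edgeR adjusted p = 0.00238 and 0.00229). Rgs16 had 0.45 in Vehicle against Sham and -0.77 in LJP against Vehicle, neither of them called. Among 7 tested receptors and partners of vitronectin 5 rose and none fell in Vehicle, with or without Vehicle 2. Plaur, the urokinase receptor, went from 0.788 ± 0.156 to 33.5 ± 29.4 CPM (SD, n = 4). Its log2 change was 5.40, or 4.803 without Vehicle 2, and that of the integrin subunit Itgb3 was 1.86 (edgeR adjusted p = 0.000499 and 0.000536).

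Other genes of pericytes and smooth muscle were counted in the same way. Of 20 pericyte genes tested, 8 rose and none fell in Vehicle, a share like the 39.9% of all genes called, with a median log2 change of 0.27. Ndufa4l2 rose by 1.65 ± 0.25 (edgeR adjusted p = 0.000649), and Nid1, a basement membrane protein, by 2.54 ± 0.54 (edgeR adjusted p = 0.00365), or 1.56 without Vehicle 2 (edgeR adjusted p = 0.00167). Mcam had 20.3 ± 1.28 CPM in Sham, 51.5 ± 41.6 in Vehicle and 14.7 ± 3.57 in LJP mice (SD, n = 4), a rise of 1.35 in Vehicle (edgeR adjusted p = 0.0185), or of 0.60 without Vehicle 2 (edgeR adjusted p = 0.0249). Without Vehicle 2, 7 of the 20 rose, where 34.3% of all genes were called, and the median was 0.17. Of 22 other smooth muscle genes, 7 rose and 4 fell, with a median of 0.39, or 0.05 without Vehicle 2. Flna, Cnn2 and Smtn rose by 2.07, 1.70 and 2.01 on the log2 scale, with edgeR adjusted p-values of 0.00109, 0.00190 and 0.00224. Like these, Synpo2, named after its values were seen, encodes an actin-binding protein, and it fell by 1.04 (edgeR adjusted p = 0.00212). Pcp4l1 fell by 1.01 from 189 ± 10.1 to 94.2 ± 27.6 CPM (edgeR adjusted p = 0.000884), and was also lower in LJP than in Sham mice (-0.76, edgeR adjusted p = 0.0183). Its Sham level was far above those of Myh11 (12.1 CPM) and Acta2 (8.90 CPM), and which cells made it was not tested. In LJP against Vehicle edgeR called none of the 20 and none of the 22, while DESeq2, with 13.7% of all genes called, called 8 pericyte genes lower and 1 smooth muscle gene higher and 7 lower.

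Markers of other cells of and around the vessel wall were counted as well. Beside these counts, 39.9% of all genes were called in Vehicle against Sham, 22.7% higher, and 34.3% were called without Vehicle 2. Of 14 endothelial markers 12 rose and none fell in Vehicle, with a median log2 change of 1.94, or 1.16 without Vehicle 2. Vwf, the von Willebrand factor, had 26.9 ± 3.51, 335 ± 268 and 100 ± 45.1 CPM in Sham, Vehicle and LJP mice (SD, n = 4). Its log2 change was 3.64 in Vehicle and 1.90 in LJP against Sham (edgeR adjusted p = 0.000277 and 0.0320), and that in Vehicle was 2.92 without Vehicle 2. Of 15 fibroblast and meningeal markers 9 rose and none fell, with a median of 0.65, or 0.36 without Vehicle 2. Col3a1, a fibrillar collagen, had 4.67 ± 0.599 CPM in Sham and 157 ± 222 CPM in Vehicle mice, a log2 change of 5.07, or 3.30 without Vehicle 2 (edgeR adjusted p = 0.00189 and 0.000475). All 7 markers of border macrophages rose, with sums of 12.2 to 15.0 CPM in Sham, 33.9 to 207 CPM in Vehicle and 16.6 to 32.8 CPM in LJP mice. Without Vehicle 2, 5 of the 7 rose and their median went from 2.87 to 2.05. In LJP against Vehicle edgeR called no marker of these 3 lists. DESeq2, with 13.7% of all genes called, called 13 endothelial, 6 fibroblast and meningeal and 6 border macrophage markers lower. No marker of these 3 lists was at 0 in all mice of a group. Their part in the changes of Pdgfrb, Des, Tagln and Notch3 was not tested.

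**Figure D5:**
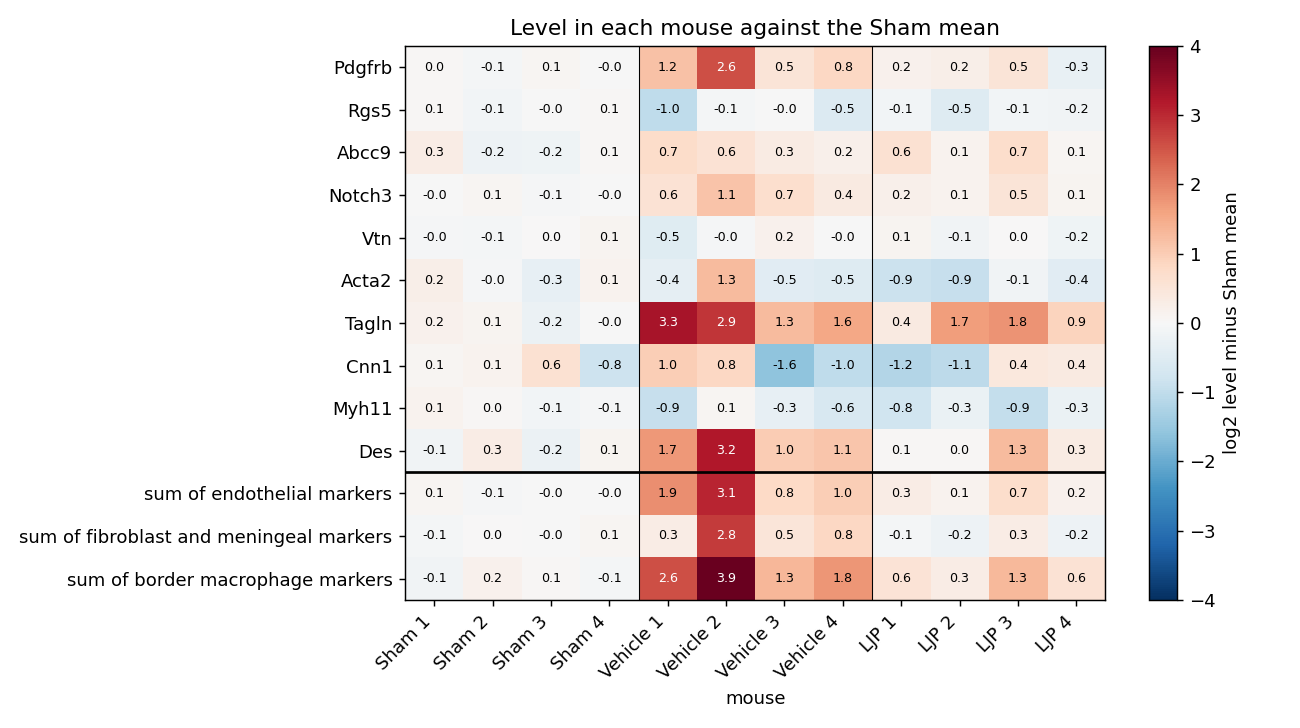
Log2 level in each of the 12 mice (columns) minus the Sham mean for the 10 genes and for the summed CPM of endothelial, fibroblast and meningeal, and border macrophage markers (rows), with red above and blue below the Sham mean. Vehicle 2 is the reddest column for Pdgfrb (2.58), Des (3.20) and all 3 marker sums, while Tagln is highest in Vehicle 1 (3.30).

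A ratio to the endothelial markers was chosen after the values were seen and is given without a test. All members are divided by the same sum, which was higher in every Vehicle and LJP mouse than in any Sham mouse, so that a gene of stable CPM such as Vtn has a lower ratio there. Per 100 CPM of summed endothelial markers, Rgs5 was at 24.3 ± 0.711 CPM in Sham, 7.05 ± 5.17 in Vehicle and 16.8 ± 2.53 in LJP mice (SD, n = 4). Vtn had 17.8 ± 1.10, 6.46 ± 4.43 and 13.8 ± 2.02, and Myh11 had 3.61 ± 0.258, 0.946 ± 0.564 and 2.05 ± 0.779 in the same order. Acta2 had 2.65 ± 0.379, 0.834 ± 0.233 and 1.40 ± 0.242. For Rgs5, Vtn, Myh11 and Acta2 all Vehicle and LJP mice lay below all Sham mice. Pdgfrb had 8.86 ± 0.277, 6.80 ± 1.05 and 7.93 ± 1.26, so its Sham and LJP mice overlapped. Des had 0.791 ± 0.162, 0.850 ± 0.0888 and 0.862 ± 0.222, with all 3 groups overlapping. Tagln alone among the members had higher means in Vehicle (3.06 ± 1.48) and LJP (3.66 ± 1.52) than in Sham mice (1.89 ± 0.218) by more than the Sham SD. Its groups overlapped, with Vehicle 2 (1.67) and LJP 1 (1.96) inside the Sham range of 1.60 to 2.10 and Vehicle 1 the highest Vehicle mouse at 5.14.

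Within groups the members fell into different patterns over the 12 mice. After the group mean was taken from each log2 CPM, Pearson's r was 0.92 between Acta2 and Des, 0.89 between Des and Notch3, 0.87 between Des and Pdgfrb and 0.82 between Rgs5 and Vtn. Without Vehicle 2 these were 0.74, 0.71, 0.54 and 0.86. Without it r also went from 0.86 to 0.57 for Acta2 and Notch3, from 0.82 to 0.14 for Acta2 and Pdgfrb and from 0.80 to 0.37 for Pdgfrb and Notch3. For Tagln r was -0.68 with Vtn and -0.49 with Rgs5, with -0.78 and -0.76 without Vehicle 2 and -0.45 and -0.066 without Vehicle 1. Vehicle 1 was the highest mouse for Tagln and the lowest for both of the others, and without it r between Rgs5 and Vtn was 0.48. These values are descriptions, because the points share libraries, their depth and their cell makeup. Among the genes outside the set whose group-centered level was most like the mean of Acta2, Tagln, Cnn1, Myh11 and Des were Senp1 (r = 0.97), Sntb2 (0.97), Dock9 (0.97) and Eif4b (0.96). For the mean of Pdgfrb, Rgs5, Abcc9, Notch3 and Vtn they were Incenp (0.98), Ankrd44 (0.97), Atp7a (0.97), Atf5 (0.96) and Pcna (0.96). All were picked for the highest r among the tested genes outside the set, and their r without Vehicle 2 was not computed.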

How the data were processed

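The authors deposited raw counts of reads per gene for 12 libraries of poly(A)-selected RNA (4 Sham, 4 Vehicle, 4 LJP) made with a kit that does not mark strand. The submitters' processing notes name featureCounts and DESeq2, without versions, and the builds GRCm39 and mm10. The positions in the table equal those of RefSeq GRCm38.p6 for all 10 members and 39730 of 39756 genes. Here the counts were filtered (filterByExpr), scaled (TMM) and fitted in one model with the quasi-likelihood test of edgeR 4.0.16 in R 4.3.3. Log2 CPM used a prior count of 2, and exact permutation tests were two-sided. The test was tested on simulated data. The members, the lists and the alternatives (DESeq2 1.42.0, RLE or library-size scaling, no filter, only the 2 groups compared, the replicate block, the study's thresholds of 0.58 and 0.01, each mouse left out) were chosen with earlier results of these data known. Named genes were the 10 members, the 3 genes of each list with the smallest p in Vehicle against Sham and the 1 in LJP against Vehicle, every tested PDGF, Notch and potassium channel gene, and the 5 genes most like each group of members, of which some are not reported here. Mice of a group differed by more than sampling noise (chi-square per degree of freedom at least 2.48). Limits from counts cover counting error only.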

Additional observations from a re-analysis of the deposited data

Results flagged for a closer look

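In 2 of the 30 groups of mice (10 genes in 3 groups) the highest or lowest mouse lay far from its neighbors. The measure was Dixon's ratio of that gap to the whole range, both on log2 CPM. It passed Dixon's critical value for groups of this size. Chance alone flags about 1 group in 20. Acta2 in Vehicle mice had a ratio of 0.918, with Vehicle 2 at 21.3 CPM and the others at 6.14 to 6.81 CPM. Rgs5 in LJP mice had a ratio of 0.876, with LJP 2 at 57.4 CPM and the others at 73.4 to 76.0 CPM.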

How the results depend on the processing

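The SE of the members' log2 values reached 0.70, in Cnn1, which had 2 to 26 counts per mouse and varied among mice of a group. The count of members called in Vehicle against Sham was 4, and it was 4 to 6 over all alternatives, with 21.2% (no filter) to 45.9% (without Vehicle 3, 6 members) of all genes called. In LJP against Vehicle it was 0, but 4 with DESeq2 (13.7% of all genes called), 1 when genes of low counts were kept (1.96%), 2 at the thresholds of the study's methods (6.97%) and 0 to 4 when 1 mouse was left out (3 without Vehicle 3, with 21.6% of all genes, and 4 without Vehicle 4, with 11.7%). In LJP against Sham it was 0, but 1 with DESeq2 (8.71% of all genes) and 3 with only the groups compared (23.8%), and 0 with any mouse left out. The cause of these shifts was not tested. Over the fits without 1 mouse, log2 values that changed sign ran from -0.47 to 0.37 for Acta2, from -0.28 to 0.50 for Cnn1 and from -0.17 to 0.037 for Vtn in Vehicle against Sham. In LJP against Vehicle they ran from -0.28 to 0.074 for Myh11, from -0.012 to 0.30 for Rgs5, from -0.18 to 0.029 for Abcc9 and from -0.084 to 0.13 for Vtn. Vtn in LJP against Sham was 0.0069 with scaling by library size only, and Apoa2 in Vehicle against Sham ran from -0.014 (without Vehicle 1) to 0.41 when 1 mouse was left out. With the replicate block 5 members were called in Vehicle against Sham (34.8% of all genes), Abcc9 being added, and 0 in LJP against Vehicle. The correlations of same-numbered mice, from -0.32 to 0.11, do not show that the numbers pair the mice. RLE normalization kept all 30 member results on their side of the threshold. Of the values under alternatives of 70 followed results of other listed genes, 1218 stayed on their side, 79 passed the threshold, 32 lost it and 1 changed sign.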

Other observations

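By their sum the 6 choroid plexus markers split the libraries in each group. Aqp1 did not follow that split, with 225 counts in Vehicle 2, its highest mouse. The summed level of the 6 markers was 22.6 to 33.2 CPM in Sham 1, Vehicle 1, Vehicle 2, LJP 1, LJP 2 and LJP 4. It was 390 to 913 CPM in the other 6 mice, so that 1 Sham, 2 Vehicle and 3 LJP mice were low. None of the 6 markers was called in any comparison by edgeR. At an unadjusted p below 0.05 there were 0 of 6 in Vehicle against Sham, 1 in LJP against Vehicle and 3 in LJP against Sham, and DESeq2 called 0, 1 and 1, the last 2 lower in LJP. All 6 lay lower in LJP than in Sham mice, with a median log2 value of -1.86. Neurons, astrocytes, microglia and oligodendrocytes were checked as well. In Vehicle against Sham 4 of 10 neuron markers fell, 2 of 8 astrocyte markers rose and 1 fell, 6 of 8 microglia markers rose, and 1 of 8 oligodendrocyte markers rose, where 39.9% of all genes were called. Gfap, the filament of reactive astrocytes, had a log2 change of 3.87 in Vehicle and 3.47 in LJP against Sham (edgeR adjusted p = 1.54e-05 and 6.04e-05). Of 8 hepatocyte markers 2 were tested and neither was called.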
